A study of Homo sapiens with 4 samples.

Results

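The cadherin superfamily apart from E-cadherin and N-cadherin was followed through KDM1A knockdown in MDA-MB-231, a widely used human cell line from a triple negative breast cancer. Members were all genes in the count files whose symbol begins with PCDH, DCHS or CELSR, begins with CDH and a digit, or is FAT1 to FAT4, leaving out CDH1, CDH2 and PCDH11Y, which gave 99 of 23228 genes. Per the labels, cells with high aldehyde dehydrogenase activity were sorted from the line with the ALDEFLUOR reagent and grown in MammoCult medium as a cancer stem cell fraction. A lentivirus then gave them either a short hairpin RNA (shRNA) that serves as control or one that targets KDM1A, a histone demethylase of the CoREST repressor complex, and both were expressed stably. RNA was sequenced from 2 control libraries and 2 knockdown libraries. The labels describe neither a further hairpin against KDM1A nor a rescue. Separate cultures are not mentioned, so p-values speak for the spread of these 4 libraries, part of which may be technical. In bulk RNA, fewer cells of a kind and less RNA per cell cannot be told apart.

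Cadherins are membrane proteins whose repeated extracellular domains bind calcium and hold neighbouring cells together. Classical cadherins bind like to like and reach the actin skeleton through catenins. FAT and Dachsous proteins are giant cadherins that pair as receptor and ligand in planar cell polarity and Hippo signalling, and CELSR proteins are the vertebrate Flamingo receptors of planar polarity. Protocadherins are mostly known from neurons. The PCDHA, PCDHB and PCDHG genes lie side by side on chromosome 5, each variable exon has a promoter of its own, and the choice among these promoters by CTCF and cohesin gives each neuron a combination of surface proteins.

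Reads assigned to genes ranged from 23902900 to 26923678 per library, and for a gene with 0 reads the limit of 3 counts lay at 0.111 to 0.126 CPM (counts per 1000000 reads). KDM1A fell from 4660 and 4059 reads in the control libraries to 561 and 649 in the KDM1A shRNA libraries. Over genes, chi-square divided by its degrees of freedom was 3.97 between the control libraries and 1.60 between the knockdown libraries, above the value near 1 that counting error alone gives. Markers of the line were present, with VIM at 1846 and 2116 CPM in the control and KDM1A shRNA groups, while ESR1 had 7, 9, 0 and 1 reads and PGR no more than 1 in any library. ERBB2, the third receptor that defines a triple negative tumour, was read at 68.7 CPM in the controls and rose to 91.1 CPM (1834 and 1672 reads against 2151 and 2384). Against the label, CDKN2A and MTAP, which MDA-MB-231 is known to have lost, were read in the controls. CDKN2A had 323 and 329 reads there and 13 and 19 after knockdown, and MTAP had 271 and 256 against 15 and 14. Of 7 genes typical of the HEK293 embryonic kidney line, CDKN2A among them, all 5 tested fell, and NEFH and PAX2 had no more than 6 reads. Their summed level was 84.2 and 87.4 CPM in the controls and 2.09 and 2.13 CPM after knockdown. On this list LIN28B fell from 638 and 519 reads to 16 and 18, and NEFM from 1158 and 1005 reads to 18 and 15. The leukocyte markers PTPRC and CD3E had no more than 4 reads, and CD14 fell from 5.67 to 3.05 CPM. The luminal markers EPCAM, KRT18, KRT19 and GATA3 all rose, from 547 and 557 CPM summed to 665 and 697 CPM.

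Of the 99 members, 45 passed the filter on low counts, 54 did not, and 10 had 0 reads in every library. Members that passed through only 1 group had to differ, so counts among the 45 describe them and are not evidence on the family. Among them, PCDH15, CDH18 and PCDHGA2 passed through the knockdown libraries alone, and PCDH17, CDH23, CDH5 and PCDHGA11 through the controls alone. PCDHGA1, with 10 reads in control library 1, would not have passed on its controls alone. At an edgeR adjusted p under 0.05, 14 members were higher and 9 lower after KDM1A knockdown, and 22 were not called. Of the 14012 genes tested, 56.1% were called, 27.3% as higher and 28.8% as lower, against 51.1% of the tested members. The median log2 fold change of the tested members was 0.23, and that of all tested genes −0.0047. Changes of 2-fold or more were called in 6 members as higher and 5 as lower, where 3.07% and 8.54% of all tested genes were called so. The called members split by family: the 6 called genes of the protocadherin clusters were all higher, the 2 called CELSR genes were lower, CDH23 was the 1 called gene among the remaining cadherins and was lower, and the other families held calls in both directions.

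**Figure D1:**
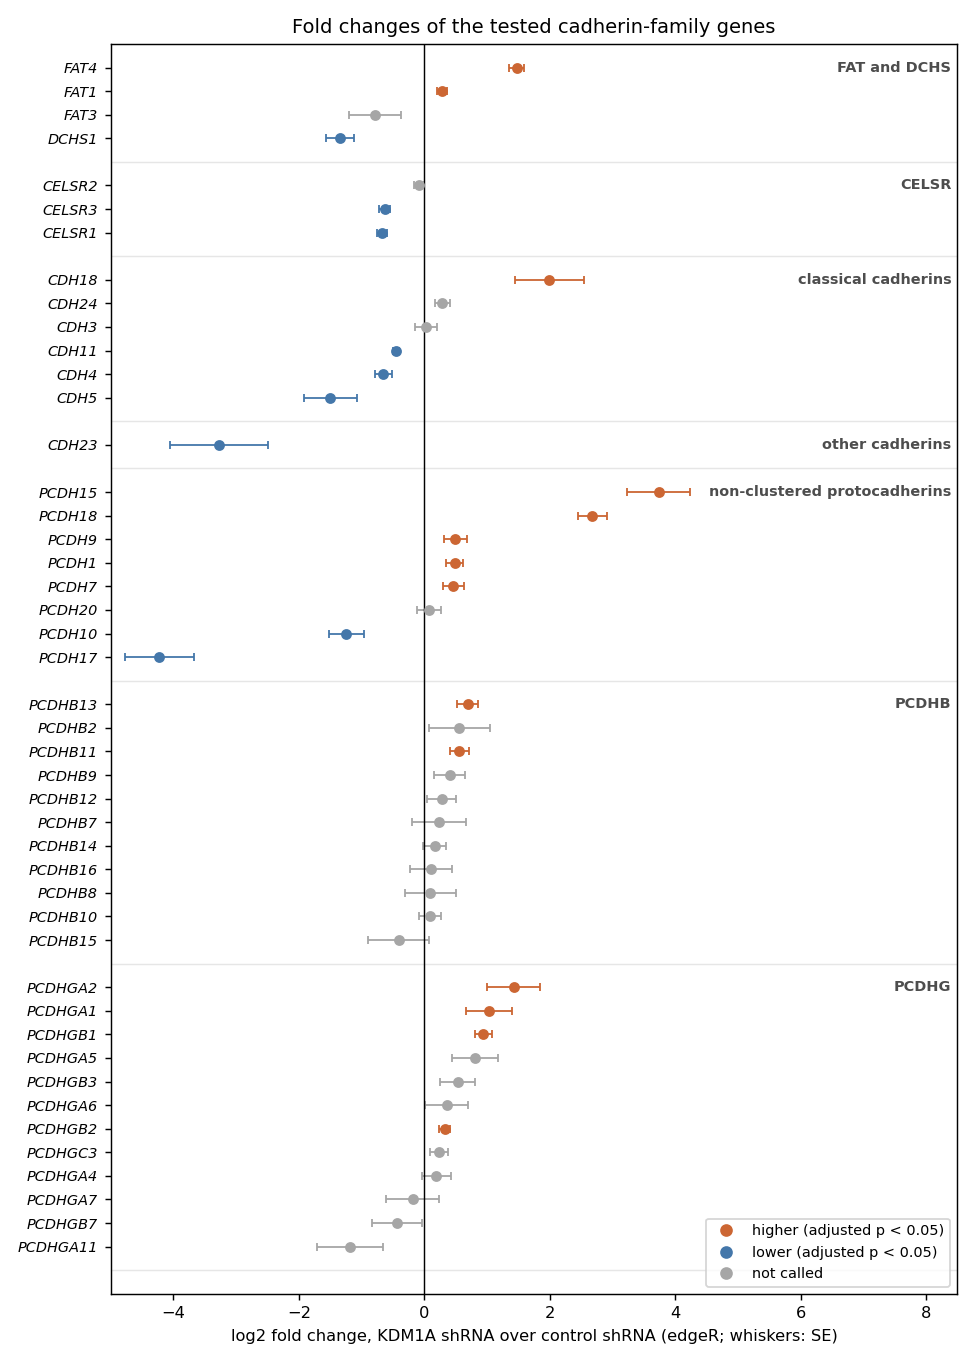
Log2 fold change (x axis, KDM1A shRNA over control shRNA) of the 45 tested members in 7 groups, with whiskers for the standard error and colours for calls at an adjusted p under 0.05. PCDH15 and PCDH18 lie farthest to the right and PCDH17 and CDH23 farthest to the left, and the called PCDHB and PCDHG genes are all right of 0.

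A few members made up most of the reads. All members together took between 0.0510% and 0.0581% of gene reads, and FAT1 alone supplied 41.8% to 51.6% of the member reads of a library. Per length of transcript, CDH11 in the controls stood at 16.9 and 16.6 CPM per kb of transcript and FAT1 at 18.8 and 14.4, so the order of these genes did not hold beyond the spread. After knockdown FAT1, at 20.1 and 20.2 CPM per kb, lay above CDH11, at 12.1 and 12.4. The next levels in the controls were those of PCDHGB2 (mean 5.06 CPM per kb, counted over the exon not shared with other genes), CDH24 (3.13), CELSR3 (2.59), CELSR2 (2.54) and CELSR1 (2.22). CELSR3, at 2.43 and 2.76, overlapped CELSR2, at 2.62 and 2.46 CPM per kb. PCDHGC3 (1.72), PCDHGB1 (1.69), PCDH1 (1.09) and CDH4 (1.03) followed, and the remaining tested members were below 1 CPM per kb in the control mean. For PCDH20 this uses its whole transcript, most of which overlaps exons of another coding gene, so its place is uncertain.

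**Figure D2:**
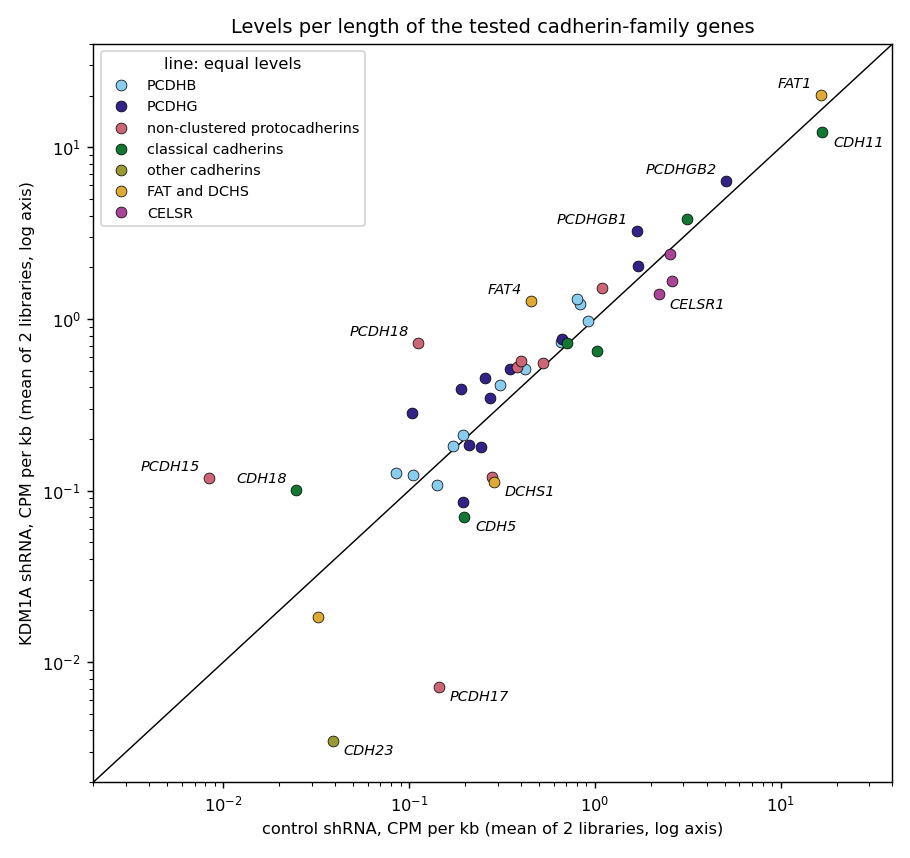
Mean level per kb of the 45 tested members in the control shRNA (x axis) and KDM1A shRNA libraries (y axis), both on log axes, coloured by family, with a line for equal levels. FAT1 and CDH11 are the highest points and fall on opposite sides of the line, and PCDH15 and PCDH17 are the points far from it at low levels.

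Among the giant cadherins, FAT4 rose and its ligand DCHS1 fell. FAT4 (chromosome 4, 126236073 to 126414087, plus strand, GRCh37), a receptor of Hippo and planar polarity signalling, had 244 and 156 reads with control shRNA and 517 and 562 with KDM1A shRNA. Both KDM1A shRNA libraries lay above both controls, and the controls themselves differed. The level went from 7.77 ± 1.90 to 21.7 ± 0.14 CPM (SD, 2 libraries each), a 2.77-fold rise (log2 fold change 1.47, SE 0.12, edgeR adjusted p = 1.1e-07).

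DCHS1 (chromosome 11, 6642561 to 6677040, minus strand), the Dachsous ligand that FAT4 binds, had 87 and 70 reads with control shRNA and 26 and 34 with KDM1A shRNA. The groups did not overlap, and the level fell 2.54-fold, from 3.07 ± 0.26 to 1.20 ± 0.16 CPM (−1.35, SE 0.22, edgeR adjusted p = 0.00012). Its paralog DCHS2 had 2 and 10 reads in the controls and 0 in both KDM1A shRNA libraries and was not tested. FJX1, the four-jointed kinase that tunes the binding of FAT4 and DCHS1 in the Golgi, had 755 and 785 reads with control shRNA and 970 and 1096 with KDM1A shRNA and rose (0.46, SE 0.07, adjusted p = 8.4e-05). The receptor and the kinase were higher in the same libraries in which the ligand was lower.

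FAT1 (chromosome 4, 187508948 to 187647876, minus strand), an atypical cadherin mutated in several carcinomas, was the most read member, with 7423 and 5170 reads with control shRNA and 7128 and 7690 with KDM1A shRNA. In CPM the values were 277 and 213 in the controls and 298 and 298 after knockdown, so the groups did not overlap but control library 2 set most of the distance. FAT1 passed as higher (1.21-fold, log2 0.28, SE 0.08, edgeR adjusted p = 0.0075). The value was 0.48 without control library 1 and 0.10 without control library 2, and the call was lost without knockdown library 2 (adjusted p = 0.051) and in DESeq2 (0.22). Genes with long transcripts were slightly lower in control library 2. The median log2 difference between control library 2 and control library 1 was −0.07 over 909 genes with transcripts of 8000 bases or more and 0.03 over 2116 genes below 2000 bases. The part of this in the FAT1 and FAT4 values was not tested, and FAT4 stood at 1.25 without control library 2. FAT3 had 15, 17, 7 and 11 reads and was not called (−0.79, adjusted p = 0.12), and FAT2 had 0 and 0 reads with control shRNA and 1 and 1 with KDM1A shRNA.

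**Figure D3:**
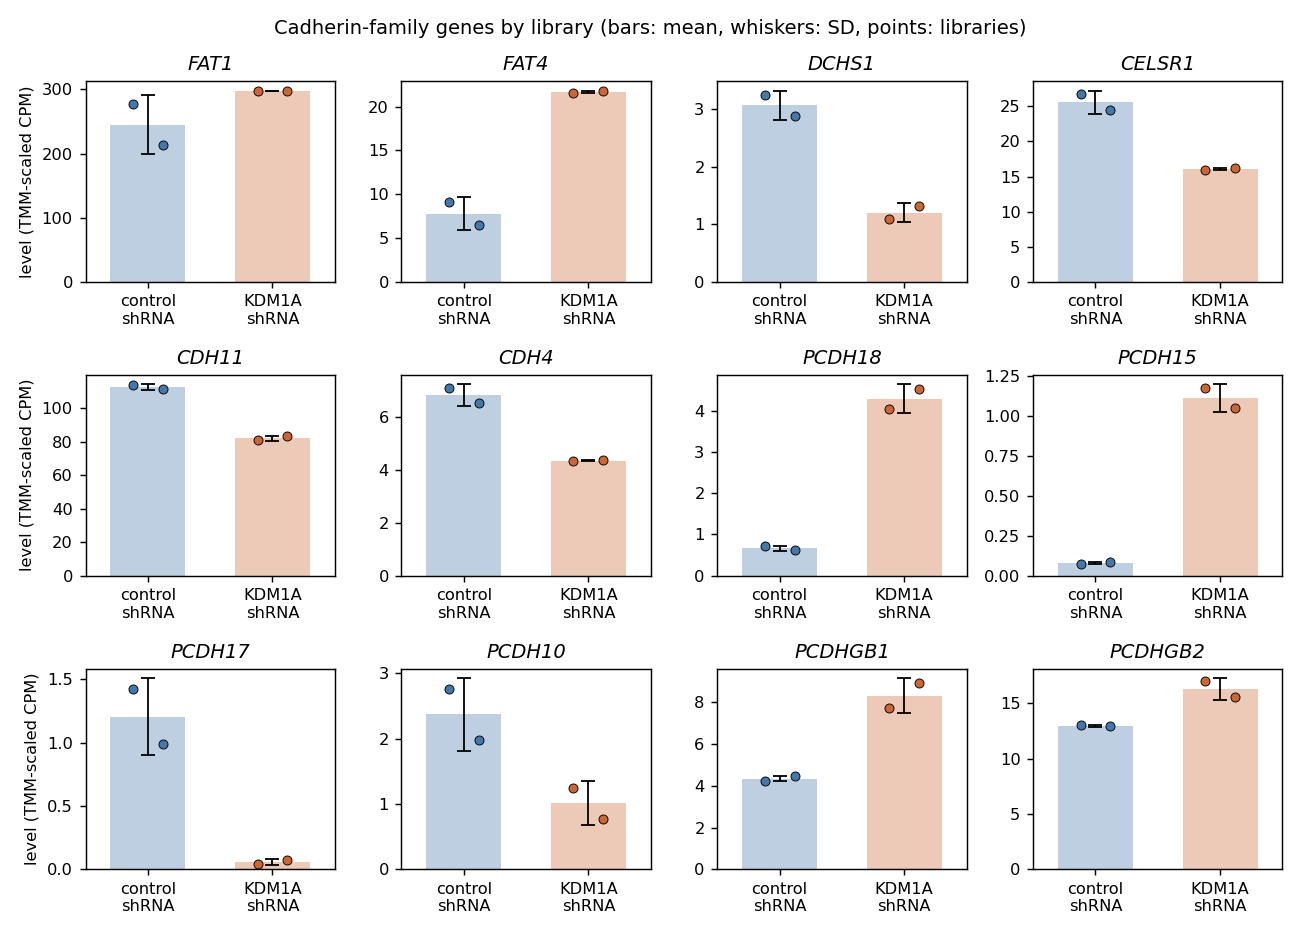
Level of 12 members in TMM-scaled CPM (y axis from 0, a scale per panel) in the control and KDM1A shRNA groups, with bars for the mean of 2 libraries, whiskers for the SD and points for the libraries. All panels show called members. In each the points of the groups do not overlap, and FAT1 shows the widest gap between its controls relative to the change.

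CELSR1 and CELSR3 fell, and CELSR2 was not called. CELSR1 (chromosome 22, 46756731 to 46933517, minus strand), a core planar polarity receptor of epithelia, had 717 and 593 reads with control shRNA and 383 and 417 with KDM1A shRNA. Its level fell 1.59-fold, from 25.6 ± 1.65 to 16.1 ± 0.12 CPM (−0.67, SE 0.08, edgeR adjusted p = 5.6e-06). CELSR3, best known for axon guidance, had 775 and 800 reads against 439 and 554 and fell 1.55-fold (−0.63, SE 0.09, adjusted p = 2.7e-05). Neither gene's groups overlapped. For CELSR2, with 774 and 656 reads against 602 and 714, the groups overlapped (−0.08, SE 0.07, adjusted p = 0.36).

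Other genes of planar polarity did not share a direction. On a list of 12 such genes, FJX1 included, all were tested, 5 were higher and 4 lower, and the median log2 fold change was 0.06. Over all tested genes 27.3% were higher and 28.8% lower. Without knockdown library 2 the number lower was 2. VANGL2, which works at the membrane with CELSR1, had 190 and 170 reads in the controls and 6 in each knockdown library (−4.84, SE 0.25, adjusted p = 8.4e-10). VANGL1, its paralog, rose from 76.6 to 113 CPM (0.56, SE 0.05), and the Wnt receptor FZD6 rose from 101 to 159 CPM (0.65, SE 0.04). CDKN2A, MTAP and the list typical of HEK293 moved with VANGL2, at the values given above, and their part in its fall was not tested.

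Of the classical cadherins, 16 genes, 6 were tested, 3 fell and 1 rose, where 28.8% of all tested genes fell and 27.3% rose. CDH11 (chromosome 16, 64977656 to 65160015, minus strand), the OB-cadherin of mesenchymal cells, had 3047 and 2707 reads with control shRNA and 1943 and 2147 with KDM1A shRNA. It fell 1.37-fold, from 113 ± 1.55 to 82.2 ± 1.47 CPM, with no overlap between groups (−0.46, SE 0.05, edgeR adjusted p = 8.6e-07). Markers of fibroblasts, which also express CDH11, moved beside it: DCN fell from 3361 and 2901 reads to 1382 and 1351, PDGFRA fell from 0.870 to 0.201 CPM, LUM rose from 0.692 to 5.16 CPM, and THY1 had no more than 1 read in any library. The summed level of these 4 genes was 121 and 127 CPM in the controls and 57.2 and 63.6 CPM after knockdown, and their part in the CDH11 result was not tested.

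CDH4 (chromosome 20, 59827317 to 60515673, plus strand), the R-cadherin first described in retina, had 191 and 159 reads with control shRNA and 104 and 113 with KDM1A shRNA. It fell 1.57-fold, again without overlap (−0.65, SE 0.14, edgeR adjusted p = 0.00090). CDH5, the VE-cadherin of endothelial junctions, had few reads, with 21 and 20 against 9 and 5 (−1.50, SE 0.43, edgeR adjusted p = 0.0078). It passed the filter on low counts through the controls alone, so a difference was built into its being tested. The CDH5 call was lost without knockdown library 2 (−1.09, adjusted p = 0.081) and in DESeq2 (0.090). The endothelial markers PECAM1 (696 and 630 reads against 505 and 564), KDR (70.8 to 32.9 CPM) and VWF (0.716 to 0.140 CPM) also fell, while TEK had 7 reads in every library. Their summed level was 93.9 and 102 CPM in the controls and 53.6 and 55.9 CPM after knockdown, and their part in the CDH5 result was not tested.

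CDH18, a type II cadherin of brain, was the classical cadherin that rose, from 3 reads in each control to 11 and 13 (1.99, SE 0.55, edgeR adjusted p = 0.0067). With so few reads the ratio of summed reads was 4.12, with an exact 95% interval of 1.64 to 12.3 that covers counting error only, and DESeq2 did not call the gene (0.096). CDH24 stood at 10.7 ± 1.94 CPM in the controls and 13.0 ± 0.82 CPM after knockdown and missed the threshold (0.29, SE 0.12, adjusted p = 0.055). The value was 0.11 without control library 1 (adjusted p = 0.46) and 0.48 without control library 2 (0.00024). CDH24 passed in limma-voom (0.0497) and with no filter on low counts (0.013), and did not in DESeq2 (0.17) or without knockdown library 2 (0.22 on the log2 scale, adjusted p = 0.30). CDH3, the P-cadherin of basal epithelium, was not called, with 83 and 78 reads against 77 and 83 (0.03, SE 0.17). The other 10 classical cadherins were not tested, and none had more than 7 reads in a library.

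Of the 5 remaining cadherins, CDH23 was the member tested. CDH23, a tip link protein of inner ear hair cells, had 11 reads in each control library and 0 and 2 in the knockdown libraries (−3.27, SE 0.79, edgeR adjusted p = 0.0026). The ratio of summed reads was 10.7, with an exact 95% interval of 2.62 to 93.7 for counting error only. The log2 fold change was −2.40 without knockdown library 1, and −6.45 without knockdown library 2, where the remaining library had 0 reads and the value is no bound. CDH13, the T-cadherin that lacks a cytoplasmic domain, had 9, 8, 10 and 10 reads and did not pass the filter. CDH16, CDH17 and CDH26 had no more than 7 reads in any library.

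Of the 12 non-clustered protocadherins 8 were tested, 5 rose and 2 fell, where 27.3% of all tested genes rose and 28.8% fell. The number that rose was 3 without control library 2, 3 without knockdown library 2 and 3 in DESeq2. PCDH18 (chromosome 4, 138440072 to 138453648, minus strand), a delta protocadherin, had 19 and 15 reads with control shRNA and 97 and 117 with KDM1A shRNA. Its level rose 6.41-fold, from 0.664 ± 0.064 to 4.29 ± 0.34 CPM, with the groups far apart (2.68, SE 0.23, edgeR adjusted p = 2.0e-07). PCDH15 (chromosome 10, 55562531 to 57387702, minus strand), the partner of CDH23 in the tip link, had 2 reads in each control library and 28 and 27 in the knockdown libraries. The ratio of summed reads was 14.2, with an exact 95% interval of 5.23 to 53.8 (log2 fold change 3.74, SE 0.50, adjusted p = 1.7e-05). The tip link partners moved in opposite directions, both at levels near 1 CPM or below. Each passed the filter on low counts only through the group in which it is high. A difference was thus built into their being tested, and the pair is a description.

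PCDH1, PCDH7 and PCDH9, the delta-1 protocadherins that were read, rose by smaller amounts. PCDH1, found in airway and other epithelia, had 141 and 126 reads against 186 and 178 (0.48, SE 0.13, edgeR adjusted p = 0.0057), and was not called without knockdown library 1 (adjusted p = 0.070). PCDH7 had 92 and 78 reads against 100 and 129 (0.47, SE 0.16, adjusted p = 0.026), and PCDH9 had 72 and 56 against 78 and 98 (0.50, SE 0.19, adjusted p = 0.034). Their groups did not overlap in CPM. Both calls were lost without control library 2 (adjusted p = 0.062 for PCDH7 and 0.13 for PCDH9), without knockdown library 2 (0.23 and 0.22) and in DESeq2 (0.15 and 0.18).

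PCDH17 and PCDH10, protocadherins of the developing brain, fell. PCDH17 (chromosome 13, 58205878 to 58303445, plus strand) had 38 and 24 reads with control shRNA and 1 and 2 with KDM1A shRNA. The ratio of summed reads was 20.1, with an exact 95% interval of 6.55 to 99.9 (−4.22, SE 0.55, edgeR adjusted p = 1.3e-05), and PCDH17 was the 1 member among the 275 genes lower by 16-fold or more. Without knockdown library 1 or 2 its value lay between −3.89 and −4.70. PCDH10 (chromosome 4, 134070449 to 134129761, plus strand), often silenced by methylation in tumours, had 74 and 48 reads against 30 and 20 and fell 2.36-fold (−1.24, SE 0.28, adjusted p = 0.0017).

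Beside these falls stand those of CDKN2A (19.7-fold), MTAP (17.6-fold) and CDKN2B, with 27 and 31 reads with control shRNA and 0 and 1 with KDM1A shRNA. The neural markers did not follow PCDH17 and PCDH10 together: MAP2 and TUBB3 rose, SOX2 fell, NCAM1 had 9, 8, 0 and 2 reads, and their summed level was 26.9 and 28.1 CPM in the controls and 31.9 and 36.6 CPM after knockdown. The part of any of these in the falls of PCDH17, PCDH10 and CDH23 was not tested. PCDH20 was not called, with 67, 69, 75 and 65 reads and overlapping groups (0.08, edgeR adjusted p = 0.75). In the annotation used for lengths, 446 of its 5105 transcript bases lie outside exons of other coding genes. Its counts may therefore miss reads set aside as ambiguous. PCDH8, PCDH11X, PCDH12 and PCDH19 were not tested, and none had more than 7 reads in a library.

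The clustered protocadherins span chromosome 5 from 140165721 to 140892544 in GRCh37, a stretch of 727 kb, in the order PCDHA, PCDHB, PCDHG. Genes of the PCDHA and PCDHG clusters share their last exons, and the files set reads over several genes aside as ambiguous, so lengths here are those of each gene's own exons. Within those own exons, the share of 100-base words that occur once in the region was 77.5% to 100% for PCDHA genes, 72.8% to 100% for PCDHB and 83.3% to 100% for PCDHG. Reads from the other words may match several genes, and values of close paralogs are uncertain to that extent. An unspliced transcript of an upstream gene also runs through the exons of the genes after it.

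The clusters differed in whether they were read at all. All 15 PCDHA genes together had 7, 7, 3 and 2 reads, no gene had more than 3 in a library, 6 had 0 throughout, and none was tested. The 19 PCDHB genes had 544 and 438 reads with control shRNA and 636 and 623 with KDM1A shRNA, or 19.2 ± 1.60 and 25.4 ± 1.70 CPM. The 23 PCDHG genes had 813 and 725 against 994 and 986, or 30.1 ± 0.33 and 39.9 ± 2.33 CPM. In both clusters the summed level was higher in each knockdown library than in either control. PCDHGB2 supplied 40.7% to 43.2% of the PCDHG reads in every library.

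**Figure D4:**
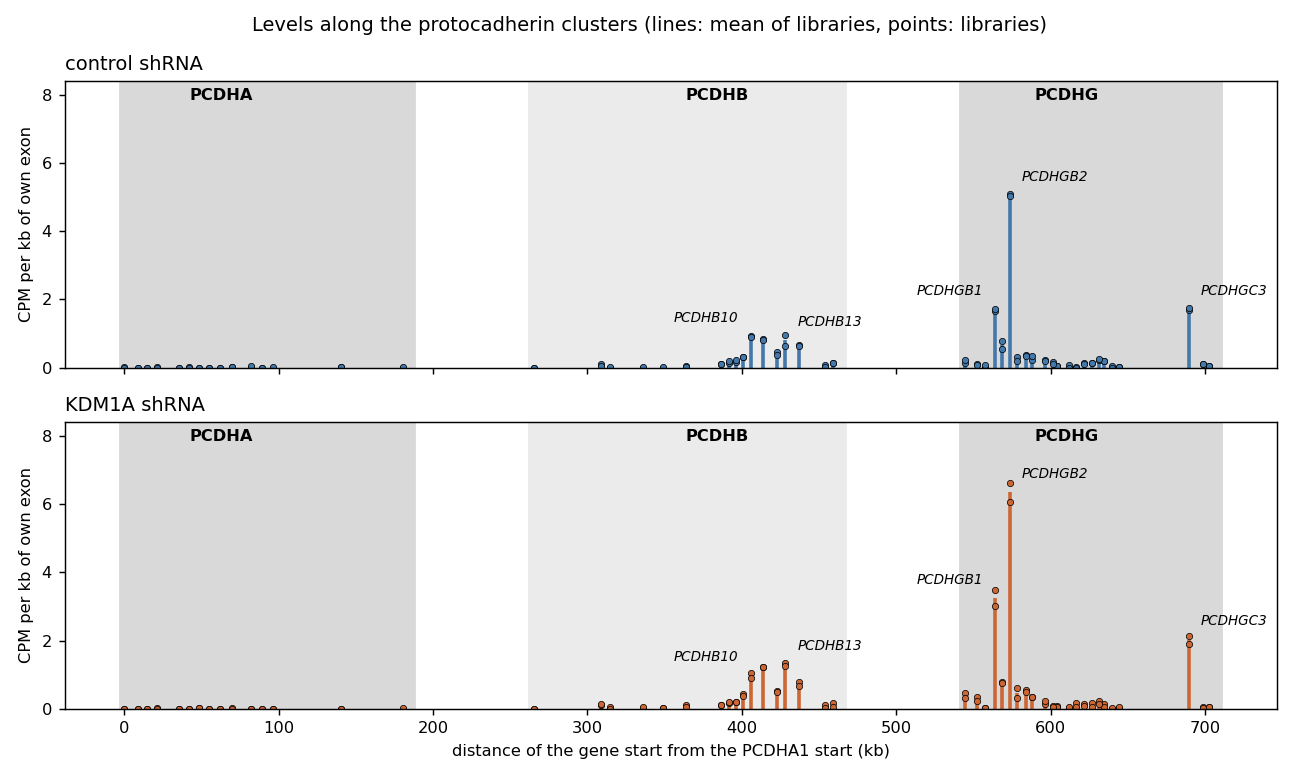
Level of the clustered protocadherins (y axis, CPM per kb of own exon) against the distance of the gene from PCDHA1 (x axis, kb), in the control libraries above and the KDM1A shRNA libraries below, with lines for the mean and points for the 2 libraries. PCDHA is near 0 throughout, the read PCDHB genes sit together in the second part of their cluster, and PCDHGB2, PCDHGB1 and PCDHGC3 stand out in PCDHG.

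Among 23 tested clustered genes 6 rose, 17 were not called and none fell by edgeR. The share that rose, 26.1%, was near the 27.3% of all tested genes called higher, while 28.8% of all tested genes were lower. At an unadjusted p under 0.05, 7 were higher and 1 lower, and the number called lower was 0 in DESeq2 and 1, PCDHGA11, in limma-voom. The log2 fold change was above 0 in 19 of the 23, with a median of 0.28, and the median stayed between 0.25 and 0.28 under the other normalizations. DESeq2 called 3 as higher, and edgeR called 3 as higher and 1 as lower without knockdown library 1.

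PCDHGB1 (chromosome 5, 140729666 to 140892542, plus strand) showed the firmest change. It had 114 and 108 reads with control shRNA and 185 and 230 with KDM1A shRNA, and rose 1.91-fold, from 4.36 ± 0.14 to 8.32 ± 0.84 CPM (0.94, SE 0.14, edgeR adjusted p = 3.6e-05). PCDHGB2, the most read gene of the clusters, had 349 and 313 reads against 406 and 401 and rose 1.25-fold (0.32, SE 0.09, adjusted p = 0.0070), and was not called without knockdown library 1 (adjusted p = 0.10). PCDHGA1, with 10 and 15 reads against 28 and 22 (1.03, SE 0.37, adjusted p = 0.028), and PCDHGA2, with 8 and 6 against 21 and 16 (1.42, SE 0.43, adjusted p = 0.011), rose at lower levels. In DESeq2 neither passed (adjusted p = 0.18 for PCDHGA1 and 0.11 for PCDHGA2), nor did they without knockdown library 1 (0.16 and 0.076), and PCDHGA1 was also lost without control library 1 (0.20). In all of these genes the groups did not overlap. For PCDHGA2, which passed the filter through the knockdown libraries alone, a difference was built into its being tested.

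In the beta cluster PCDHB13 and PCDHB11 rose. PCDHB13 had 129 and 79 reads with control shRNA and 162 and 165 with KDM1A shRNA (0.69, SE 0.17, edgeR adjusted p = 0.0027), and its controls differed from each other by more than its KDM1A shRNA libraries did. It was 0.45 without control library 2 and 1.01 without control library 1, called in both. PCDHB11 had 95 and 81 reads against 122 and 131 (0.56, SE 0.15, adjusted p = 0.0056), and DESeq2 did not call it (0.060). Of the other tested beta genes, PCDHB10 (81, 73, 83 and 77 reads) and PCDHB14 (76, 66, 81 and 74 reads) were read about as often as PCDHB11 in the controls and were not called. The 8 untested PCDHB genes had no more than 9 reads in a library.

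The stretches before the transcription starts of the called genes are shown because clustered protocadherins are known to be chosen at their promoters, through a conserved element with the core CGCT that CTCF binds. RefSeq (GRCh38.p14) promoters were matched for 47 of 57 clustered genes, PCDHB11 not among them. The 250 bases before the start are given 5′ to 3′, all on the plus strand, with capitals for matches to CGCTGT or TGGCGCT. Both words were chosen after reading these promoters and can overlap each other, and matches on either strand were counted. Positions are chr5:141330264-141330513 for PCDHGA1, chr5:141338510-141338759 for PCDHGA2, chr5:141349849-141350098 for PCDHGB1, chr5:141359886-141360135 for PCDHGB2 and chr5:141213669-141213918 for PCDHB13. Beside them are the best read genes that were not called, PCDHGC3 at chr5:141475716-141475965 and PCDHB10 at chr5:141192103-141192352.
PCDHGA1: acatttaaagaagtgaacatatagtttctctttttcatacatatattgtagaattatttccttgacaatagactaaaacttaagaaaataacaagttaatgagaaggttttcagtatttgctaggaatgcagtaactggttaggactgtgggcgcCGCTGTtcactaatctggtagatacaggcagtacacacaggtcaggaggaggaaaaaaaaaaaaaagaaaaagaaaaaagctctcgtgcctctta
PCDHGA2: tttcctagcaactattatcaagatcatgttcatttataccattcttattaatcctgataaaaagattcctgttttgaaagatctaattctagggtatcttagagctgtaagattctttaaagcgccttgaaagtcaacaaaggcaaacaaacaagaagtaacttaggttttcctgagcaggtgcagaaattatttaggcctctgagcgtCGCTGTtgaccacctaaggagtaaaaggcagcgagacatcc
PCDHGB1: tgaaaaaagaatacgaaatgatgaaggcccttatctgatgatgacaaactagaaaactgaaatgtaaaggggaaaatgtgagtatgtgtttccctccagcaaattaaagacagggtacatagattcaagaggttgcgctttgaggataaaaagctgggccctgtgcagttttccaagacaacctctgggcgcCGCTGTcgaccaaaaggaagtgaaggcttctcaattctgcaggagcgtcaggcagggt
PCDHGB2: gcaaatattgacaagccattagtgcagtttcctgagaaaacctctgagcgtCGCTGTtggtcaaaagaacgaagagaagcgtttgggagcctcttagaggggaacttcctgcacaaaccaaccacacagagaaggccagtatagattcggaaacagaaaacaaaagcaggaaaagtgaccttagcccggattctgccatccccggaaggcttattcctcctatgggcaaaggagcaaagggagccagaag
PCDHGC3: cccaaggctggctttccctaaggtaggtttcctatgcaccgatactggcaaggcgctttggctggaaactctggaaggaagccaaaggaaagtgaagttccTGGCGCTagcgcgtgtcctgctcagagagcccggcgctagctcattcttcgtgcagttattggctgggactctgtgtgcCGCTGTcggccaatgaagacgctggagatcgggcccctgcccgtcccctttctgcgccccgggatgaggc
PCDHB13: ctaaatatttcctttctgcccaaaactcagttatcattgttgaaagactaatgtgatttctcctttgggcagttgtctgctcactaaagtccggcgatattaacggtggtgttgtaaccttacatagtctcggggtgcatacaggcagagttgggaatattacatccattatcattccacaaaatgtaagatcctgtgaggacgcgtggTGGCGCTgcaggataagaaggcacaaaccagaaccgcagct
PCDHB10: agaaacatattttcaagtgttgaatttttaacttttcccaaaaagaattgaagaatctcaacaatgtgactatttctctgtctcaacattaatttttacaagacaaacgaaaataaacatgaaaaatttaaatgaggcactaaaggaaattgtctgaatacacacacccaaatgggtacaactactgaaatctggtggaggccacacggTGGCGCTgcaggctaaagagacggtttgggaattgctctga

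The word CGCTGT was in 17 of 20 PCDHG promoters (85.0%), 7 of 13 PCDHA promoters (53.8%) and 1 of 14 PCDHB promoters (7.1%), against 8.8% of the 35116 promoters in the table. TGGCGCT was in 12 of 14 PCDHB promoters (85.7%), 3 of 20 PCDHG promoters and 0 of 13 PCDHA promoters, against 3.1% of all. Since the words were picked from promoters of these clusters, an excess there was built in and is a description. Members were counted by their first listed promoter, while the shares over all count every listed promoter. In the sequences above the first base of the match lay 41 bases before the start in PCDHB13, PCDHB10 and PCDHGA2, 58 in PCDHGB1, 95 in PCDHGA1 and 199 in PCDHGB2. PCDHGC3 held both words, 149 and 70 bases before its start. Genes that rose and genes that were not called carried the same words. Of the members outside the clusters, 4 of 26 matched promoters (15.4%) held either word, against 11.4% of all promoters.

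The PCDHG genes called higher with the filter on low counts lay at the start of their cluster. With no filter 6 PCDHG genes were called higher, not all of them at the start. The 4 genes called with the filter were among the first 6 of 23, PCDHGA1 to PCDHGB2. There PCDHGA4 was not called (0.19) and PCDHGA3 was not tested. Farther along, PCDHGA5 (0.81, SE 0.37, edgeR adjusted p = 0.077), PCDHGB3 (0.53) and PCDHGA6 (0.35) lay above 0, and PCDHGA7 (−0.18), PCDHGB7 (−0.44) and PCDHGA11 (−1.19, SE 0.52, adjusted p = 0.066) below it. PCDHGC3, the C-type gene near the end, stood at 0.23 (SE 0.15) with 116 and 110 reads against 132 and 127. PCDHGA5 passed with no filter on low counts (adjusted p = 0.039), without control library 1 (0.032) and without knockdown library 2 (0.016). PCDHGA11 passed as lower in limma-voom (0.045) and without knockdown library 1 (−2.09, adjusted p = 0.022).

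Across the 12 tested PCDHG genes Spearman's rho between distance along the cluster and log2 fold change was −0.78 and Pearson's r −0.64. These genes share the 4 libraries and nested transcripts. PCDHGA2 at the start and PCDHGA11 near the end passed the filter through the group in which each is high. PCDHGA1, the first gene, would not have passed on its controls alone, where library 1 had 10 reads. The values are thus a description of the tested genes. With no filter on low counts rho was −0.43 over all 23 PCDHG genes. With a library left out, rho over the 12 lay between −0.80 and −0.76. In the beta cluster, over 11 tested genes, rho was −0.16 and ranged from −0.42 without knockdown library 1 to 0.33 without knockdown library 2, and it was −0.57 over 16 genes with no filter. The order along the gamma cluster was thus weaker over all its genes than over the tested ones, and whether it differs from that of the beta cluster was not tested. Split after PCDHGB2, a point chosen after the values were seen, the first 6 genes had 536 and 482 reads together in the controls and 691 and 721 after knockdown. The 17 genes behind them had 277 and 243 against 303 and 265, and 0 of their 7 tested members were called by edgeR, where PCDHGA5 and PCDHGA11 had unadjusted p of 0.046 and 0.038. Untested PCDHG genes had few reads, among them PCDHGA9 with 1, 0, 11 and 4 and PCDHGB4 with 11, 7, 4 and 4. PCDHGA9, gene 14 in the order of the cluster, thus had more reads after knockdown although it lies far from the start. Its ratio of summed reads was 15.5, with an exact 95% interval of 2.38 to 651 for counting error only.

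**Figure D5:**
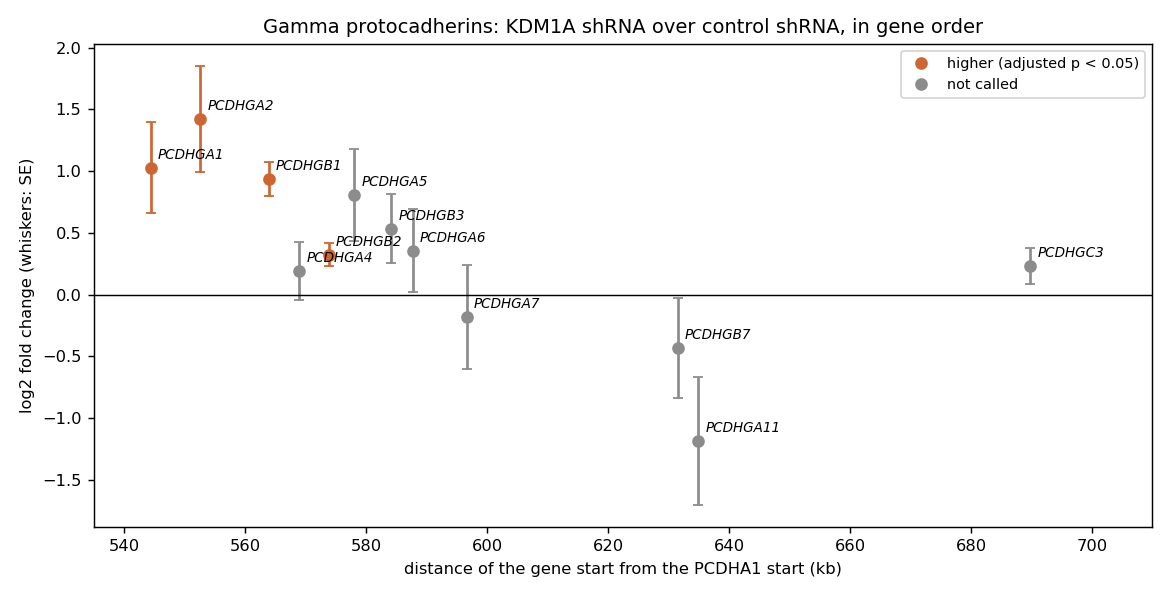
Log2 fold change (y axis, KDM1A shRNA over control shRNA, whiskers for SE) of the 12 tested PCDHG genes against their distance from PCDHA1 (x axis, kb). The 4 called genes lie at the left end, PCDHGA11 is the lowest point, and PCDHGC3 stands apart on the right near 0.23.

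Regulators that act at the clusters changed in both directions and by less than 1.5-fold. For comparison with their counts, 27.3% of all tested genes were called higher and 28.8% lower. On a list of CTCF, cohesin and silencing genes 13 were tested, 6 were higher and 4 lower, with a median of 0.12, and 2 were lower without knockdown library 2. The DNA methyltransferase DNMT1 rose from 208 to 290 CPM (0.48, SE 0.04), and the cohesin subunits SMC1A (0.35, SE 0.04) and RAD21 (0.26, SE 0.04) rose. The cohesin subunit STAG2 fell, from 6800 and 5921 reads to 4315 and 4601 (−0.47, SE 0.04). CTCF itself was not called (−0.08, SE 0.05), with 2036 and 1820 reads against 1705 and 1855.

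Catenins, the cytoplasmic anchors of classical cadherins, were higher in 6 of 9 tested genes and not called in the other 3 by edgeR, with a median of 0.14. Over all tested genes 27.3% were called higher and 28.8% lower, for comparison with this list and the next. The number called higher was 3 with upper-quartile normalization, 3 without knockdown library 1 and 3 without knockdown library 2. The actin linkers VCL (530 to 633 CPM, 0.25, SE 0.03) and CTNNA1 (794 to 900 CPM, 0.18, SE 0.03) and beta-catenin, CTNNB1 (541 to 583 CPM, 0.11, SE 0.03), were slightly higher, and CTNNA3 rose from 8 and 4 reads to 16 and 25 (1.79, SE 0.45). Genes for the cleavage and cytoplasmic partners of protocadherins were lower in 9 and higher in 2 of 17 tested, with a median of −0.13, and 5 were lower without knockdown library 2. FYN, a kinase that binds PCDHA and other receptors, had 512 and 448 reads in the controls and fell to 107 and 157 (−1.83, SE 0.12). The WAVE complex genes ABI2 (−0.43, SE 0.05) and WASF1 (−0.47, SE 0.07) fell, and the focal adhesion kinase PTK2, which clustered protocadherins inhibit, rose (0.33, SE 0.04).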

How the data were processed

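RNA sequencing counts of 4 libraries, 2 with control shRNA and 2 with KDM1A shRNA, were used. The authors deposited whole-number read counts per gene symbol without normalization. The submitters' processing notes list HTSeq, TopHat2 2.0.8b, CASAVA 1.8.2 and the hg19 build, and per the labels reads were single ends of 100 bases. Strand setting and annotation release: not given in the sources used here. Overlapping and antisense genes may therefore share reads. The 5 summary lines of HTSeq were left out. Reads set aside as not unique made up 29.7% to 32.2% of a file's total and reads over several genes about 0.59%.

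All genes were fitted together with edgeR 4.0.16 in R 4.3.3 (TMM, filterByExpr with a minimum count of 10 and total of 15, quasi-likelihood test on group, Benjamini-Hochberg over 14012 genes, threshold 0.05). Standard errors (SE) were taken as the size of the log2 fold change over the root of its F statistic. With 2 libraries a side, exact permutation allows no two-sided p under 0.333 and was not used. For the same reason, groups that do not overlap say little on their own. This held for 34 of the 45 tested members, and the share over all genes is not given here. Positions and lengths are from GENCODE 44 mapped to GRCh37, which held 97 of the 99 members. PCDHB17 and PCDHB18 were not matched. Level per kb uses the representative transcript, or for clustered genes its exon bases not shared with another coding gene. The edgeR step was tested on simulated data. It recovered 66% of 1.5-fold and 94% of 2-fold changes, with 6 false calls among unchanged genes. Only 50 of 14012 genes were changed at each fold size there, while 56.1% of tested genes were called in the data. The adjusted threshold was therefore stricter in the simulation, and its shares and false calls need not carry over. Of 33 changed genes at low level, over all fold sizes, 48.5% were recovered, so a member not called may still have changed. Intervals of read ratios are exact and cover counting error only.

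Members, lists and tests were chosen with earlier results of these data known. Named genes are KDM1A, members called with a mean of at least 1 CPM, members with a mean of at least 5 CPM, the 2 best read members of each family, and up to 4 genes per pathway list with the smallest p, with CDKN2A, CDKN2B and MTAP beside members lower by 16-fold or more. PCDH15, PCDH17, CDH5, CDH18, CDH23, PCDHGA1, PCDHGA2, CTCF, the marker genes and all uncalled or untested members below those limits were named after their values were seen. Alternatives were RLE, upper-quartile and library-size scaling, a filter at a mean of 5 CPM or none, limma-voom (limma 3.58.1), DESeq2 1.42.0, a block by replicate number, and each library left out. With a library left out, the lone library of its group is taken to vary like the other group.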

Additional observations from a re-analysis of the deposited data

How the results depend on the processing

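Of the 23 called members, 13 kept their call under each of the 12 alternatives that tested them and 10 lost it under at least 1. None of the called members changed sign under these alternatives. With genes kept only at a mean of at least 5 CPM, 12 members were tested, 6 were called higher and 4 lower, with 1 higher in PCDHB, 2 in PCDHG, 1 among non-clustered protocadherins (0 lower), 0 among classical cadherins, 0 lower among the other cadherins, 0 lower among FAT and DCHS genes, and 2 lower on the planar polarity list. Fewer genes were tested there. DESeq2 called 7 members higher, with 1 in PCDHB, 2 in PCDHG, 3 among non-clustered protocadherins, 0 among classical cadherins and 1 among FAT and DCHS genes, and the cause was not tested. With no filter, 2 classical cadherins were higher and 2 FAT and DCHS genes lower. Limma-voom called 2 classical cadherins higher and 1 PCDHG gene lower, and upper-quartile scaling called 3 catenins higher, for which the cause was not tested. The other scalings moved the median log2 fold change of all genes no farther than −0.03.

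With a library left out, the number called ranged from 10 to 14 for members higher, 8 to 10 for members lower, 1 to 5 for PCDHG higher, 0 to 1 for PCDHG lower, 3 to 5 for non-clustered protocadherins higher, 1 to 2 for classical cadherins higher and 1 to 2 for FAT and DCHS genes higher. On the lists it ranged from 3 to 6 for catenins higher, 2 to 4 for CTCF, cohesin and silencing genes lower, 2 to 4 for planar polarity genes lower and 5 to 10 for cleavage and cytoplasmic partners lower. The log2 fold change of 8 tested members that were not called changed sign with a library left out. It ranged from −0.00019 to 0.053 for CDH3, −0.082 to 0.23 for PCDH20, −0.016 to 0.20 for PCDHB10, −1.37 to 0.20 for PCDHB15, −0.11 to 0.34 for PCDHB16, −0.093 to 0.29 for PCDHB8, −0.019 to 0.46 for PCDHGA4 and −0.71 to 0.18 for PCDHGA7. The lowest PCDHG count came without knockdown library 1, and the lowest list counts of lower genes without knockdown library 2.

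Replicate numbers were shared between groups, but the deviations of same-numbered libraries correlated at only 0.015 over the tested genes. Counting error can lower this value, so it does not show whether libraries of the same number were prepared together. With the replicate number as a block, 16 members were higher and 9 lower, and 2 classical cadherins were higher, CDH24 (adjusted p = 0.015) among them. PCDHGA5 also passed (0.042). Depth limits the genes with few reads: 54 members could not be tested, and a gene with 0 reads could have stood at up to 0.126 CPM.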
